A study of Mus musculus with 6 samples.

Results

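The glucocorticoid-responsive genes described here are 10 genes: the glucocorticoid receptor Nr3c1 and 9 genes known to respond to glucocorticoids in muscle, namely Fkbp5, Tsc22d3, Klf15, Ddit4, Cebpd, Zbtb16, Mt1, Mt2 and Pik3r1. They were chosen by gene symbol from the 41709 genes of the RNA-seq table, and all 10 were found and passed the filter of a mean of at least 1 TPM. The samples were 6 tibialis anterior (TA) muscles of male C57BL/6J mice, collected 14 days after electroporation. Of these, 3 received a CMV-promoter plasmid for Flag-tagged wild-type Lrpprc (LrpprcWT), and 3 received the same plasmid with proline 27 of Lrpprc replaced by alanine (LrpprcP27A), a change that prevents hydroxylation at that residue. Every muscle therefore received a Lrpprc plasmid on top of its own Lrpprc gene, and muscles with a control plasmid were not analysed here. The study electroporated the TA muscles of both legs of a mouse, 1 with each plasmid, and libraries with the same number were treated as coming from the same mouse. The age of these mice is not given in the sources used here.

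Glucocorticoids are adrenal steroid hormones that enter cells and bind the receptor encoded by Nr3c1, which is held ready by heat-shock protein chaperones. The bound receptor moves to the nucleus, binds DNA at glucocorticoid response elements and raises or lowers the transcription of its target genes. In skeletal muscle the hormone is known for causing wasting: its targets oppose insulin and growth signalling, break down amino acids and feed protein degradation. Some of the targets answer to other signals too. The metallothioneins Mt1 and Mt2, small proteins that bind zinc and copper, are also raised through metal response elements by the zinc sensor Mtf1, and Ddit4 and Cebpd respond to energy stress and to inflammation.

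The question posed by the design is whether these genes differ between LrpprcP27A and LrpprcWT muscles. With limma on log2(TPM + 1), where TPM is a gene's length-corrected share of the transcripts in a library, Mt2, Mt1 and Pik3r1 fell with LrpprcP27A at an adjusted p under 0.05, and none of the 10 rose (0 at an unadjusted p under 0.05). The background was large and lay on one side: of the 11611 genes tested, 23.3% fell and 1.34% rose by the same test, 87.99% had a log2 fold change below 0, and the median was -0.32. The median over the 10 genes was -0.19. At an unadjusted p under 0.05, 5 of the 10 were lower and 0 higher, against 5134 and 301 of the 11611 tested genes. With the mouse as a block, 5 of the 10 fell (Cebpd and Nr3c1 in addition), against 48.4% of all genes, and none rose, against 2.69%. After median-of-ratios scaling, which sets the typical gene to no difference (median -0.0047), none of the 10 passed in either direction (3 of those below 0 and 1 of those above had an unadjusted p under 0.05), against 6.03% of all genes lower and 5.25% higher. For the unadjusted counts of this fit, the share of all genes is not given here. With this scaling and the block together, 4 fell (Mt1, Mt2, Pik3r1 and Cebpd) and 4 rose (Fkbp5, Tsc22d3, Klf15 and Zbtb16), against 15.8% and 13.4% of all genes. The shares of the 10 that fell on the deposited scale were thus close to the background. With the scaling and the block together, the shares that fell and rose were both above it. For every gene named in this paragraph, whether it passed depended on the scale, the block or both.

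**Figure D1:**
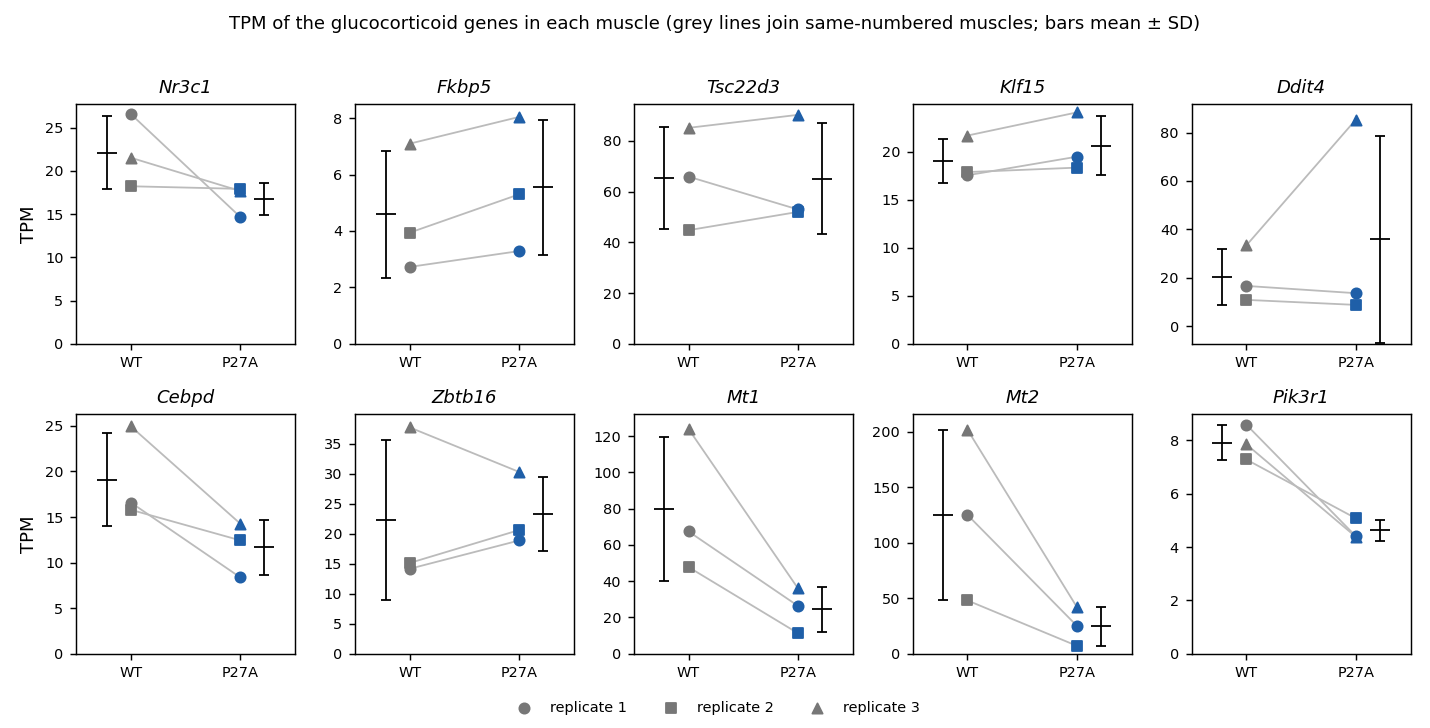
TPM (vertical axes, each starting at 0 except for Ddit4, whose SD bar passes below 0) of the 10 genes in the 3 LrpprcWT (grey) and 3 LrpprcP27A (blue) muscles. Grey lines join muscles of the same replicate number and black bars give the mean ± SD. The groups do not overlap for Nr3c1, Cebpd, Mt1, Mt2 and Pik3r1, and replicate 3 (triangles) is the highest in both groups for 8 of the 10 genes.

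Sequences from in front of Mt1 and Mt2 are shown because these genes had the largest differences of the 10. The Mt1 promoter is printed in full because letters of both kinds of response element can be read in it. Mt2 and Mt1 lie next to each other on the plus strand of chromosome 8 (GRCm39), Mt2 at 94898819 to 94900207 and Mt1 at 94905710 to 94906955, with 5.5 kb between them. The 250 bases before the annotated start of Mt1 (chr8:94905460-94905709, plus strand) were searched on both strands for the letters of a glucocorticoid response element, GNACA and its reverse complement TGTNC with 3 bases between them, and of a metal response element core, TGCACNC or TGCGCNC. Capitals mark the matches, first the glucocorticoid element and then the metal element.
Mt1 promoter: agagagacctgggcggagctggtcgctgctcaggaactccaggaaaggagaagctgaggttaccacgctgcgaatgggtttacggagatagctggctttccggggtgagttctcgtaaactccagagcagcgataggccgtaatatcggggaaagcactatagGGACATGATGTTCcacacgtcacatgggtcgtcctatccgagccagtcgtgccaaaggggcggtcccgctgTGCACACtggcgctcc

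The glucocorticoid letters began 87 bases before the start of Mt1, and none of the other 9 genes held them in this window. They occurred in 65 of 21751 mouse promoters (0.299%). The metal core occurred in 21.9% of promoters, in 26.6% of those of the tested genes, and in 7 of the 10 genes. It was found once each in Mt1, Tsc22d3, Klf15, Ddit4, Zbtb16 and Pik3r1, and at 2 places in Mt2. It was denser in the 250 genomic bases before the start codon, where Mt1 held 5 matches and Mt2 held 4. As many as 5 were found for 0.0554% of 21654 genes and as many as 4 for 0.314%, whereas 22.4% had any. These sites, with their flanks, in the order of the plus strand and with the core in capitals as read on that strand, are the following.
Mt1 site 1: cgctgTGCACACtggcgc
Mt1 site 2: gagctcTGCACTCcgcccg
Mt1 site 3: gaaaagTGCGCTCggctct
Mt1 site 4: cctgctGGGTGCAaaccct
Mt1 site 5: acccttTGCGCCCggactc
Mt2 site 1: cgggtcGTGCGCAggccca
Mt2 site 2: aagggcGTGTGCAggcggc
Mt2 site 3: gggggcGCGTGCAtggtgc
Mt2 site 4: agctttTGCGCTCgaccca
The match at Mt1 site 1 is the metal element of the promoter printed above. A match of letters is a description and not evidence of binding, and no binding was measured here.

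The receptor itself, Nr3c1, was measured at 26.6, 18.2 and 21.5 TPM in LrpprcWT replicates 1, 2 and 3 and at 14.7, 17.9 and 17.7 TPM in LrpprcP27A replicates 1, 2 and 3. The groups did not overlap, but LrpprcWT replicate 2 and the highest LrpprcP27A muscle were nearly equal. The log2 fold change was -0.37 (SE 0.16), which did not pass the test (limma, adjusted p = 0.0993), passed it with the block (adjusted p = 0.0394), and was -0.013 after median-of-ratios scaling (adjusted p = 0.955). Its difference thus lay close to that of the median gene.

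Fkbp5, a chaperone that holds the receptor in a low-affinity state and is a standard reporter of receptor activity, was scarce in these muscles. It had 2.73, 3.94 and 7.09 TPM in LrpprcWT replicates 1, 2 and 3, and 3.29, 5.30 and 8.04 TPM in the LrpprcP27A muscles of the same numbers. The LrpprcP27A muscle was the higher one in each of the 3 pairs, by 0.20, 0.35 and 0.16 on the log2 scale, while the range across mice within each group was far wider than any of these steps. The log2 fold change was 0.24 (95% interval -0.51 to 0.98; limma, adjusted p = 0.564, and 0.135 with the block). Rescaled by median of ratios, Fkbp5 stood at 0.54, with an adjusted p of 0.291 without the block and 0.00844 with it.

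Tsc22d3 encodes GILZ, a leucine-zipper protein through which glucocorticoids dampen inflammation, and was among the more abundant of the 10. The LrpprcWT muscles of replicates 1, 2 and 3 had 65.9, 44.8 and 85.1 TPM, and the LrpprcP27A muscles had 52.9, 52.0 and 90.2 TPM. The groups overlapped almost fully, and the pairs differed in sign. Tsc22d3 had a log2 fold change of -0.0053 (95% interval -0.61 to 0.60; limma, adjusted p = 0.988), and 0.36 after median-of-ratios scaling (adjusted p = 0.297 without and 0.0418 with the block).

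Zbtb16, a zinc-finger transcription factor strongly induced by glucocorticoids in many tissues, had 14.2, 15.1 and 37.8 TPM in LrpprcWT replicates 1, 2 and 3. In the LrpprcP27A muscles it had 18.9, 20.6 and 30.3 TPM. LrpprcP27A was above LrpprcWT in the pairs of replicates 1 and 2 and below it in the pair of replicate 3, and the groups overlapped. Zbtb16 had a log2 fold change of 0.17 (95% interval -0.61 to 0.94; limma, adjusted p = 0.695), and 0.53 after median-of-ratios scaling (adjusted p = 0.296 without and 0.0347 with the block).

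Klf15, the transcription factor that switches on branched-chain amino acid breakdown in response to the hormone, varied less within groups than the other induced transcription factors. Its values were 17.5, 17.9 and 21.7 TPM in LrpprcWT replicates 1, 2 and 3 and 19.5, 18.3 and 24.1 TPM in LrpprcP27A. Each LrpprcP27A muscle lay above the LrpprcWT muscle of the same number, by 0.14, 0.035 and 0.15 on the log2 scale, with overlap between the groups. The log2 fold change was 0.11 (95% interval -0.22 to 0.43; limma, adjusted p = 0.549), and 0.46 after median-of-ratios scaling (adjusted p = 0.0556 without and 0.0222 with the block).

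Cebpd, a C/EBP transcription factor induced by glucocorticoids and by inflammatory cytokines, stood on the other side. LrpprcWT replicates 1, 2 and 3 had 16.6, 15.8 and 24.9 TPM, and the LrpprcP27A muscles had 8.38, 12.4 and 14.3 TPM. All 3 LrpprcP27A muscles were below all 3 LrpprcWT muscles. For Cebpd, a log2 fold change of -0.66 (SE 0.22) missed the threshold without the block (limma, adjusted p = 0.0568) and passed it with the block (adjusted p = 0.000701). Rescaled by median of ratios, Cebpd stood at -0.31, with an adjusted p of 0.326 without and 0.0484 with the block.

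Ddit4, also called REDD1, inhibits the growth kinase complex mTORC1 and is raised by glucocorticoids, fasting and hypoxia. It had 16.6, 10.8 and 33.3 TPM in LrpprcWT replicates 1, 2 and 3 and 13.6, 8.74 and 85.4 TPM in LrpprcP27A. The LrpprcP27A muscle of replicate 3 stood far above the other 5, and the other 2 pairs differed by -0.27 and -0.28 on the log2 scale. The log2 fold change of 0.26 (95% interval -1.39 to 1.91; limma, adjusted p = 0.778) turned to -0.69 without that library and to -0.091 without LrpprcWT replicate 2.

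Pik3r1 encodes the p85α regulatory subunit of PI3-kinase, through which glucocorticoids can blunt insulin signalling. It had 8.59, 7.28 and 7.85 TPM in LrpprcWT replicates 1, 2 and 3 and 4.41, 5.08 and 4.38 TPM in LrpprcP27A. The groups were far apart for their spread, at 7.91 ± 0.656 and 4.62 ± 0.394 TPM (mean ± SD, n = 3 each). Pik3r1 fell by 0.66 on the log2 scale (SE 0.13; limma, adjusted p = 0.0187), and all 3 pairs had the same direction. Rescaled by median of ratios, Pik3r1 stood at -0.34, with an adjusted p of 0.0758 without and 0.0251 with the block. Without LrpprcWT replicate 1 or 3, or LrpprcP27A replicate 2 or 3, the adjusted p was between 0.0525 and 0.095. In these fits, in that order, 2.33%, 0.122%, 4.44% and 3.8% of all tested genes fell, against 23.3% with all libraries.

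The metallothioneins had the largest differences. Mt1 was measured at 67.4, 47.8 and 123.9 TPM in LrpprcWT replicates 1, 2 and 3 and at 26.4, 11.3 and 36.0 TPM in LrpprcP27A. Mt2 was measured at 125.0, 48.0 and 201.7 TPM in LrpprcWT and at 25.1, 7.11 and 42.0 TPM in LrpprcP27A. For both genes the groups did not overlap, and in each group replicate 2 was the lowest and replicate 3 the highest. Mt1 fell by 1.69 on the log2 scale (SE 0.43; limma, adjusted p = 0.0299), to a mean of 0.308 of that with LrpprcWT. Mt2 fell by 2.37 (SE 0.64, adjusted p = 0.0343), to a mean of 0.198 of that with LrpprcWT.

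Within pairs the decreases were much more even than the levels. The log2 difference of Mt1 was -1.32, -1.99 and -1.76 in pairs 1, 2 and 3, and that of Mt2 was -2.27, -2.59 and -2.24. With the block the adjusted p from limma was 2.76e-08 for Mt1 and 1.39e-10 for Mt2. The block fit has 2 residual degrees of freedom per gene and takes 16.9 more from the spread of all genes. The small size of these p values thus rests mostly on that shared spread. Rescaled by median of ratios, Mt1 and Mt2 stood at -1.32 and -2.01, with adjusted p values of 0.0760 and 0.0790 without the block and 0.00786 and 0.00336 with it. Without LrpprcWT replicate 1, LrpprcWT replicate 3 or LrpprcP27A replicate 2, neither gene passed the unpaired test, with adjusted p values between 0.0571 and 0.149. In these fits, in that order, 2.33%, 0.122% and 4.44% of all tested genes fell, against 23.3% with all libraries. The log2 fold change was between -1.75 and -1.23 for Mt1 and between -2.25 and -1.69 for Mt2. Mt1 and Mt2 are close paralogs, and how reads shared by both were assigned is not given in the sources used here, so the split between them is uncertain.

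**Figure D2:**
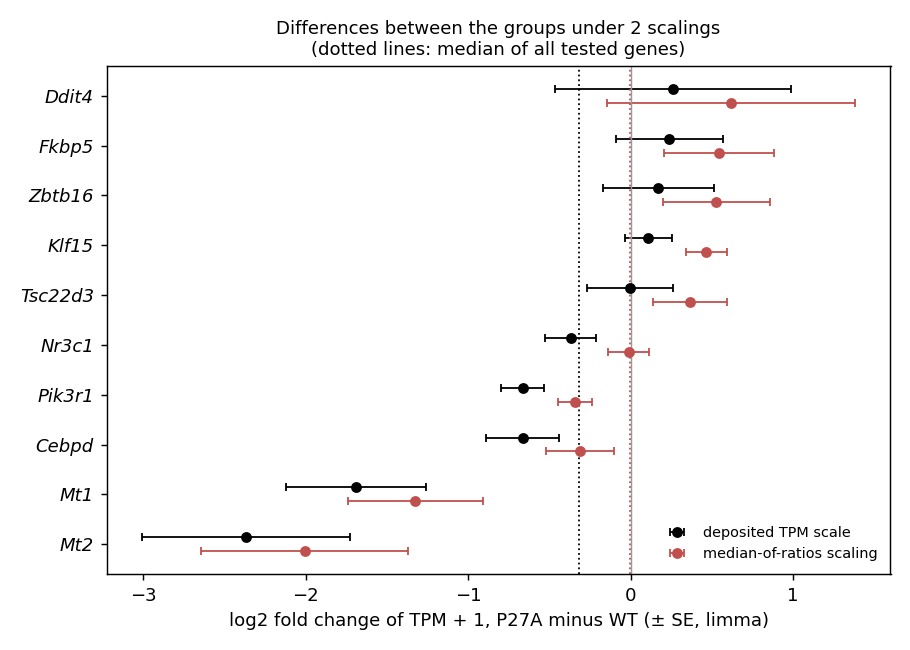
Log2 fold change of TPM + 1, LrpprcP27A minus LrpprcWT (horizontal axis), with its standard error from limma for each of the 10 genes, on the deposited TPM scale (black) and after median-of-ratios scaling (red). Dotted lines mark the medians of all tested genes, -0.32 and -0.0047. Mt2 and Mt1 lie farthest to the left on both scales, and Tsc22d3 changes sign between them.

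Non-overlap of the groups was counted across the table as well. Of the 10 genes, 5 had all LrpprcP27A muscles below all LrpprcWT muscles (Nr3c1, Cebpd, Mt1, Mt2 and Pik3r1) and none had them all above, against 47.6% and 3.51% of the tested genes. For each of the 5, the two-sided exact permutation test over the muscles gave p = 0.1, the smallest that 3 against 3 allows.

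Most of the 10 genes kept the same top mouse in both groups. Replicate 3 was the highest muscle in both groups for 8 of the 10 genes, all but Nr3c1 and Pik3r1, whereas it was so for 22.3% of all tested genes. In LrpprcWT its level was 2.13 times the mean of replicates 1 and 2 for Fkbp5, 2.58 times for Zbtb16 and 2.33 times for Mt2. In LrpprcP27A the same ratio was 1.87 for Fkbp5, 1.53 for Zbtb16 and 2.61 for Mt2. For Nr3c1 the ratios were 0.961 and 1.09, so the receptor's own transcript did not share the pattern. Of 23 further glucocorticoid-induced genes tested, 16 (69.6%) also had replicate 3 highest in both groups. Of 11 receptor chaperones and hormone-supply genes 8 did (72.7%). By contrast, 2 of 12 receptor coregulators and none of 6 branched-chain amino acid genes did. For the other lists described below, the counts were 3 of 8 metal and zinc genes and 3 of 11 KLF, C/EBP and TSC22 relatives. They were 3 of 12 PI3-kinase and insulin genes and 2 of 11 mTORC1 genes. After median-of-ratios scaling the counts were 7 of the 10 genes, 14 of the 23 and 7 of the 11 chaperone and supply genes, against 11.8% of all genes. Replicate 3 is a single muscle in each group, and both are taken to be from the same mouse by their library number. Both muscles of a mouse share its circulating hormone, its time of collection and its handling. Whether any of these differed for replicate 3 was not measured, and their part in the pattern was not tested.

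**Figure D3:**
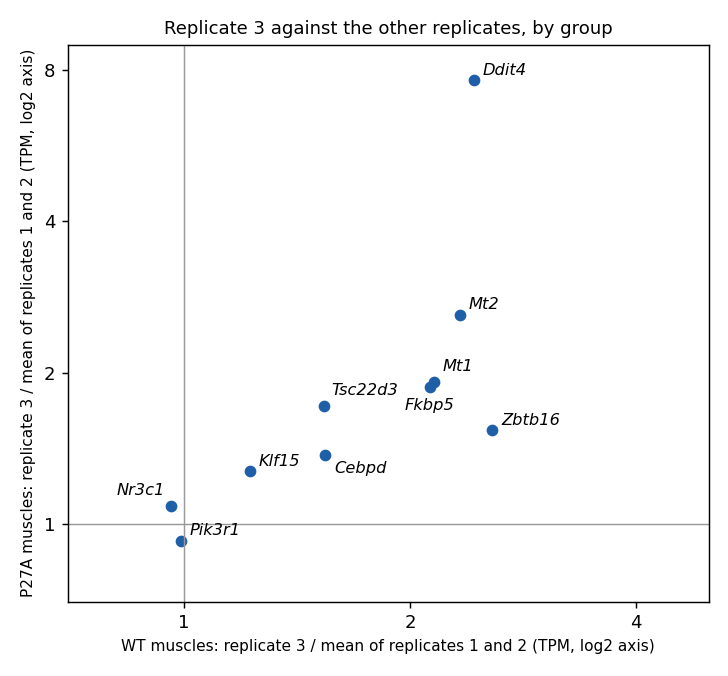
Level of each of the 10 genes in replicate 3 divided by the mean of replicates 1 and 2, in LrpprcWT muscles (horizontal) and LrpprcP27A muscles (vertical), both on log2 axes, with grey lines at equal levels. In both groups 8 genes lie above 1, with Ddit4 at 2.43 and 7.65, while Nr3c1 and Pik3r1 lie close to 1.

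Other genes of the pathway were taken from lists chosen by role. Among 23 other glucocorticoid-induced genes, 4 fell and 2 rose on the deposited scale. Of all tested genes, the background for this and every later list, 23.3% fell and 1.34% rose in the same fit. The list's median log2 fold change was -0.39. Values in parentheses here and for the lists that follow are log2 fold changes with their SE, and the adjusted p values are from limma. The genes that fell were Cdkn1a, the cell-cycle inhibitor p21 (-1.85, SE 0.23, adjusted p = 0.0089), Anxa1, an anti-inflammatory phospholipid-binding protein (-1.52, SE 0.32, adjusted p = 0.0212), Zfp36, which destabilises cytokine transcripts (-1.14, SE 0.28, adjusted p = 0.0277), and Nfkbia, the inhibitor of NF-κB (-1.09, SE 0.24, adjusted p = 0.0224). The genes that rose were Mstn, the growth inhibitor myostatin, from 8.34 ± 2.47 to 19.1 ± 6.04 TPM (1.10, SE 0.27, adjusted p = 0.0279), and Fbxo32, the muscle ubiquitin ligase atrogin-1 (0.72, SE 0.15, adjusted p = 0.0202). The most abundant members that did not pass were Pdk4, a brake on glucose oxidation (-0.18, SE 0.66), and Trim63, the ubiquitin ligase MuRF1 (-0.078, SE 0.20). The members thus moved in both directions. With the block 12 fell and 4 rose, against 48.4% and 2.69% of all tested genes. After median-of-ratios scaling 3 fell and 3 rose, against 6.03% and 5.25%.

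Around the metallothioneins, 2 of 8 metal and zinc genes fell and none rose, with a median of -0.46. They were Mt3, another metallothionein, from 9.12 ± 1.86 to 2.56 ± 0.473 TPM (-1.50, SE 0.17, adjusted p = 0.0073), and the zinc transporter Slc30a5 (-0.60, SE 0.19, adjusted p = 0.0472). Mt4 was listed at 0 in every library. Mtf1, the zinc sensor, had 5.95 ± 0.914 and 5.08 ± 0.111 TPM (-0.18, SE 0.14, adjusted p = 0.312), and the zinc transporter Slc30a4 did not pass either (-0.46, SE 0.21, adjusted p = 0.112). With the block 7 of the 8 fell, against 48.4% of all tested genes, and after median-of-ratios scaling 1 did, against 6.03%.

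Among the KLF, C/EBP and TSC22 relatives of Klf15, Cebpd and Tsc22d3, 4 of 11 fell and none rose, with a median of -0.69. These were Klf4 (-1.13, SE 0.21), Tsc22d4 (-1.07, SE 0.18), Klf6 (-1.04, SE 0.19) and Klf2 (-1.03, SE 0.15), with adjusted p values of 0.0163, 0.0154, 0.0160 and 0.0116 from limma. Klf2, Klf4 and Klf6 are zinc-finger transcription factors. Cebpb, the most abundant of the relatives that did not pass, had a log2 fold change of -0.55 (SE 0.36, adjusted p = 0.243). Tsc22d1 had -0.19 (SE 0.13, adjusted p = 0.251). With the block 8 of the 11 fell, against 48.4% of all tested genes, and 3 after median-of-ratios scaling, against 6.03%.

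Beside Pik3r1, 1 of 12 genes of the PI3-kinase and insulin pathway fell and none rose (median -0.19). This was Akt1, a kinase downstream of PI3-kinase (-0.64, SE 0.17, adjusted p = 0.0308). Akt2, its more abundant relative, had -0.038 (SE 0.11) and the insulin receptor substrate Irs1 had -0.18 (SE 0.23). Around Ddit4, 1 of 11 mTORC1 genes fell, the stress-responsive Sesn3 (-0.72, SE 0.23, adjusted p = 0.0482), and none rose (median -0.082). Ddit4l, the muscle relative of Ddit4, had -0.089 (SE 0.17), and the mTORC1 component Akt1s1 had 0.083 (SE 0.096). With the block 4 PI3-kinase genes and 1 mTORC1 gene fell, against 48.4% of all tested genes. After median-of-ratios scaling 3 mTORC1 genes rose, against 5.25% of all tested genes, and no PI3-kinase gene passed.

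In 3 further lists no gene passed the unpaired limma test. At an unadjusted p under 0.05, 3 coregulators and 1 branched-chain amino acid gene were below 0, and no chaperone or supply gene passed. At that threshold, 5134 of all 11611 tested genes were lower and 301 higher in the same fit. The lists were 11 chaperones and hormone-supply genes (median -0.24), with the abundant chaperones Hsp90ab1 at -0.17 (SE 0.15) and Hspa8 at -0.48 (SE 0.21), 12 receptor coregulators (median -0.18), with Carm1 at -0.13 (SE 0.12), and 6 branched-chain amino acid genes of the Klf15 programme (median -0.014), with Dld at -0.29 (SE 0.12) and Bckdha at -0.027 (SE 0.091). With the block, 4 chaperone and supply genes and 4 coregulators fell, and no branched-chain amino acid gene did, against 48.4% of all tested genes. After median-of-ratios scaling 1 coregulator rose, against 5.25% of all tested genes.

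**Figure D4:**
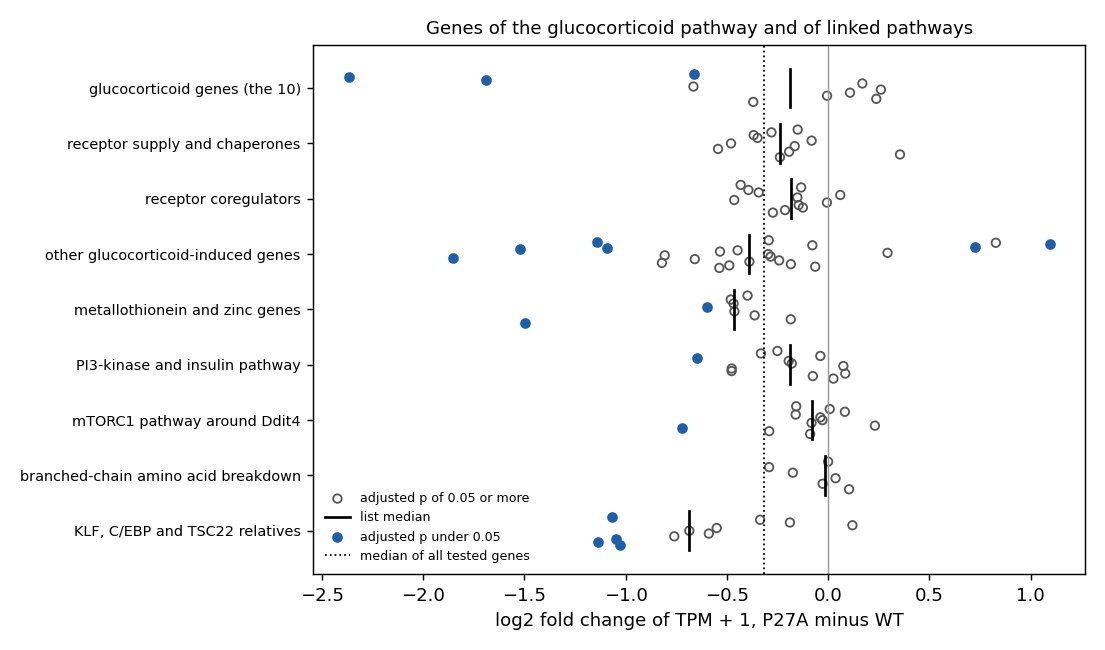
Log2 fold change of TPM + 1, LrpprcP27A minus LrpprcWT (horizontal axis), for each tested gene of the 10 and of 8 linked lists (rows). Filled points have an adjusted p under 0.05 by limma, vertical bars are list medians, and the dotted line is the median of all tested genes, -0.32. The KLF, C/EBP and TSC22 relatives have the lowest list median, -0.69, and the branched-chain amino acid genes one close to 0.

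Several of the genes that fell are expressed by cells other than myofibres, and the marker lists moved as follows. Markers counted as fallen passed the unpaired limma test, by which 23.3% of all tested genes fell. The marker calls are given on the deposited scale only, where 87.99% of all tested genes had a log2 fold change below 0. The summed TPM of 6 myofibre markers was 98250 to 109033 with LrpprcWT and 94167 to 106880 with LrpprcP27A. That of 6 fibroblast markers was 868 to 1456 and 237 to 508, and all 6 fell. That of 6 macrophage markers was 219 to 407 and 73.9 to 138, and all 5 tested fell. The sixth, Cd163, lay under the filter and on the other side, at 0.315, 0.581 and 0.480 TPM with LrpprcWT and 1.08, 0.821 and 1.67 TPM with LrpprcP27A. The sums of 5 satellite cell markers were 36.7 to 65.5 and 26.3 to 31.7 (4 of 5 fell), of 6 endothelial markers 169 to 299 and 125 to 174 (1 of 6 fell), and of 5 pericyte and smooth muscle markers 255 to 377 and 199 to 280 (2 of 5 fell). Those of 5 Schwann cell markers were 51.8 to 64.7 and 28.4 to 56.2 (1 of 3 tested fell). Mean TPM was higher with LrpprcP27A for endothelial Vwf (3.88 against 3.40) and smooth muscle Myh11 (16.5 against 15.1). None of the neutrophil markers (32.1 to 53.2 and 24.2 to 38.2) or adipocyte markers (6.99 to 21.6 and 13.1 to 28.3) passed. The T cell markers summed to 1.71 to 2.59 and 0.362 to 1.20, with Trac at 0 in every library. In bulk muscle, fewer cells of a type and less RNA per cell cannot be told apart, and the part of these cells in the differences of Mt1, Mt2, Pik3r1, Cebpd and the linked lists was not tested.

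The plasmid's gene, Lrpprc, whose reads come from the plasmid and from the muscle's own gene, had 35.1, 37.0 and 75.2 TPM with LrpprcWT and 26.9, 29.7 and 26.0 TPM with LrpprcP27A (log2 fold change -0.72, SE 0.26; limma, adjusted p = 0.0652, and 0.00243 with the block). The log2 difference of Lrpprc was -0.37, -0.31 and -1.50 in pairs 1, 2 and 3. After median-of-ratios scaling its log2 fold change was -0.36 (limma, adjusted p = 0.331 without and 0.245 with the block). By qRT-PCR, the paper reports similar Lrpprc mRNA levels with both plasmids. The first principal component held 78.08% of the variance, and LrpprcWT replicate 2 scored -0.80 on it, between the other LrpprcWT libraries and the LrpprcP27A libraries. Without that library, 5 of the 10 genes fell instead of 3, while the share of all tested genes that fell was 59.5%. Genes of the mitochondrial genome took 36.0% to 45.2% of the TPM with LrpprcWT and 44.2% to 46.1% with LrpprcP27A, and a larger share lowers the TPM of every other gene. The part of this share in the differences between the groups was not tested.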

How the data were processed

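RNA-seq was done on 6 TA muscles. Per the study's methods, the authors used CLC Genomics Workbench to map trimmed reads to GRCm39 and to compute the deposited TPM, which sum to 1000000 in each library and keep no read depth, so no counting error can be given. The library kit named in the labels does not mark strand. From these values, log2(TPM + 1) was compared between the groups with limma 3.58.1 (R 4.3.3, empirical Bayes with a trend) for the 11611 genes that averaged 1 TPM or more, with Benjamini-Hochberg adjustment over all of them and a threshold of 0.05. Changes of low genes come out too small on this scale.

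The libraries of both groups carry the numbers 4, 8 and 9, and the study compared contralateral muscles. Once group means were removed, same-numbered libraries had correlations over genes of 0.36 (number 4), 0.53 (number 8) and 0.36 (number 9), so the number was used as a block in an alternative fit. The block fit had 2 residual degrees of freedom and 16.9 from the spread shared over genes, so all its p values lean on that spread. Other alternatives were a pseudocount of 0.1, a filter at 5 TPM or none, no trend, the Kruskal-Wallis test, 3 other scalings, and each library left out. In simulated data for 11611 genes with 200 changed by 2 up or down on the log2 scale, limma called 194 of them and 11 unchanged genes. The noise was drawn separately for each gene, with no shift shared by a library or a mouse. The simulation therefore checks only that the code runs as intended and gives no error rate or power for these data.

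The genes and lists were chosen with earlier results of these data known. All 10 genes are named, and in each list the called genes (at most 4 of the largest) and the 2 most abundant others. In the list of other glucocorticoid-induced genes, Nfkbia and Fbxo32 were added after their values were seen, so that all 6 called genes are given. The values of 1 receptor coregulator that this rule names are not reported here. Promoters were read from the GRCm39 genome at GENCODE canonical transcript starts.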

Additional observations from a re-analysis of the deposited data

How the results depend on the processing

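Of the 10 genes, 3 fell in the unpaired limma fit and 5 with the replicate block, against 23.3% and 48.4% of all tested genes. Rescaling without mitochondrial and ribosomal RNA genes gave 1. The count was 0 without the filter, with the Kruskal-Wallis test, with median-of-ratios scaling or with quantile normalization. At an unadjusted p under 0.05 these fits, in that order, had 4, 5, 3 and 2 lower. The unpaired fit itself had 5 lower at that threshold, against 5134 of all 11611 tested genes. No all-gene count at that threshold is given here for the other fits. With median-of-ratios scaling 6.03% of all tested genes fell. For the rescaling, the fit without the filter and quantile normalization the share of all genes is not given here. Their counts therefore have no background to be read against. The Kruskal-Wallis test cannot go below an unadjusted p of 0.0495 with 3 against 3, and no gene of the table passed it (smallest adjusted p 0.0969), so its 0 says nothing about the 10 genes. In fits that each left out 1 library, the count ranged from 0 (without LrpprcWT replicate 1, LrpprcWT replicate 3 or LrpprcP27A replicate 2) to 5 (without LrpprcWT replicate 2), while the share of all tested genes that fell ranged from 0.122% (without LrpprcWT replicate 3) to 59.5% (without LrpprcWT replicate 2). Leaving out replicate 3 of both groups, chosen after seeing the data, also gave 0, with 2 muscles per group and 0 genes called lower in the table. None of the 10 rose in any of these fits, and 4 rose with the replicate block and median-of-ratios scaling together. Tsc22d3 turned from -0.0053 to 0.36 with median-of-ratios scaling (with or without the block), 0.18 with the rescaling and 0.26 with quantile normalization. With a library left out, the log2 fold change ranged from -0.029 to 0.54 for Fkbp5, -0.26 to 0.21 for Tsc22d3, -0.0034 to 0.20 for Klf15, -0.69 to 0.88 for Ddit4 and -0.071 to 0.61 for Zbtb16. Without replicate 3 of both groups, Ddit4 was at -0.27. Mt1, Mt2, Pik3r1, Cebpd and Nr3c1 kept a negative log2 fold change in every fit. The cause of the lost calls was not tested. TPM keeps no depth, so it is not known how precisely low genes such as Fkbp5 were counted.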
